A study of Mus musculus with 4 samples.

Results

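The actin and contractile genes comprised 10 of the 24026 genes in the expression table of F123-ESCs. They were chosen by symbol: the actins Acta2, Actb and Actg1, the calponin family members Tagln, Cnn1 and Cnn2, the myosin light chain Myl9, the tropomyosins Tpm1 and Tpm2, and the intermediate filament gene Vim. F123-ESCs are a male mouse embryonic stem cell (ESC) line from a cross of S129 and CAST mice, so that every autosome comes as one copy from the S129 mother and one from the CAST father. Polyadenylated RNA of untreated cells (genotype S129/CAST) was sequenced in 4 libraries, all of this single line. The cells had been kept on inactivated embryonic fibroblasts with LIF, passaged without them at least 2 times, and collected after about 48 h. The authors gave each gene an RPKM, a read count scaled to the length of the gene and to the total of mapped reads, for each allele in each library.

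Actin monomers assemble into filaments, which myosin motors pull against each other to produce tension in every cell type. Non-muscle cells build these filaments from beta- and gamma-actin, whereas smooth muscle adds alpha-smooth muscle actin together with transgelin, calponin and muscle tropomyosins that bind along the filament. Many of these genes are targets of SRF, a transcription factor that binds the CArG box and responds, through its cofactors, to the pool of free actin. Vimentin forms a separate filament system, typical of mesenchymal cells and also made by cultured stem cells.

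Reference sequence before the start was in the RefSeq promoter table (GRCm38.p6, which has the coordinates of mm10) for 8 members. Actb and Tagln had no entry there and were not searched. The pieces around CArG boxes are shown because this motif is the known SRF site. The box was searched on both strands in the 250 bases before the start as 2 C, then 6 bases that are each A or T, then 2 G. It was found in 3 of the 8 members (Actg1, Cnn2 and Myl9) and in 1.47% of 32851 promoters. With exactly 1 of the middle bases being C or G, it was found in Acta2 and Myl9 and in 7.24% of the promoters. The capitals mark these matches. For Actg1 the piece is chr11:120348546-120348615, minus strand, with the box 90 to 81 bases before the start. The Cnn2 piece is chr10:79988514-79988583, plus strand, with the box 56 to 47 bases before the start. For Myl9 it is chr2:156775273-156775404, plus strand, with the exact box farther from the start (161 to 152 bases) and the box with 1 mismatch nearer (99 to 90 bases). For Acta2, chr19:34255438-34255467 and chr19:34255388-34255417, minus strand, hold boxes with 1 mismatch 84 to 75 and 34 to 25 bases before the RefSeq start. Both Acta2 pieces lie in the first exon of a longer GENCODE transcript. The hexamer TATAAA was found in Vim alone among the 8 members, 32 to 27 bases before the start, and in 12.4% of all promoters. These matches are descriptions of letters in the reference, and binding was not measured.
Actg1: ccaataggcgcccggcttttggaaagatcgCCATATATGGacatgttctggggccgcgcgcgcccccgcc
Cnn2: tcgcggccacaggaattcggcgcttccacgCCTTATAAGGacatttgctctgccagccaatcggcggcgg
Myl9: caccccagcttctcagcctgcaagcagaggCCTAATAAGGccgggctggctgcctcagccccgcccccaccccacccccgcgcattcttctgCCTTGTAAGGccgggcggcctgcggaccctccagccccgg
Acta2 (first): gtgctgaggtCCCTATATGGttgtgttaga
Acta2 (second): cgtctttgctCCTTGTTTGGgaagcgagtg

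Reads on both alleles totalled 34120416 to 56627972 per library, with replicate 4 the shallowest, and each member's allele had between 32 and 31405 reads. Reads that cover no SNP between the strains enter neither allele, so a level compared between genes also depends on how many SNPs each gene holds, which was not examined. All 8 stem cell markers examined were expressed, from Pou5f1 at 29.5 RPKM to Dppa5a at 7111 RPKM. The fibroblast list (10 genes) summed to 183 to 230 RPKM per library, with 7 genes at 1 RPKM or more. Col1a2 at 166 RPKM made up most of this sum. It was followed by Postn with 15.4 RPKM and Col3a1 with 11.4 RPKM, and Lum was lowest at 0.0462 RPKM. Col1a2 had 2044 to 4200 reads per allele, and Col1a1, at 5.68 RPKM, had 465 to 1092. The sums of these lists therefore depend on the gene lengths in the RPKM, which were not compared here. The smooth muscle list (5 genes) summed to 24.3 to 31.5 RPKM and was led by Des with 16.6 RPKM and Smtn with 5.64 RPKM. Myh11, the smooth muscle myosin heavy chain, was at 3.62 RPKM and its regulator Myocd at 0.0836 RPKM. The cardiac and skeletal muscle list (5 genes) summed to 4.39 to 5.66 RPKM. A longer list of 10 striated muscle genes, described below, summed to 56.8 to 69.1 RPKM. It was led by Tnnc1 with 33.0 RPKM and Myl4 with 17.3 RPKM, which are not in the shorter list. In such bulk RNA, fewer cells of a type and less RNA per cell cannot be told apart. The fibroblast sum was highest in replicate 3 and lowest in replicate 1, and its part in the members' levels was not tested.

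All members had reads assigned to both alleles in all libraries, and their mean levels over both alleles ran from 15.4 RPKM (Tpm2) to 1703 RPKM (Vim). Their median of 88.2 RPKM compares with 0.975 RPKM over all 24026 genes. In order of their level (mean ± SD, n = 4), Vim with 1703 ± 136 RPKM was followed by Actg1 with 431 ± 32.4, Tpm1 with 412 ± 16.1 and Acta2 with 339.5 ± 23.0 RPKM. The next were Tagln with 101 ± 7.25, Myl9 with 74.9 ± 1.70, Actb with 58.4 ± 5.73 and Cnn2 with 54.4 ± 3.88 RPKM. Cnn1 with 30.9 ± 2.23 and Tpm2 with 15.4 ± 1.02 RPKM were the lowest. Neighbours in this order did not overlap over the libraries, except Actg1 with Tpm1 and Actb with Cnn2, where the first was higher in 3 of 4 libraries. In deposited RPKM, the ratio of alpha-smooth muscle actin to gamma-actin, Acta2 to Actg1, was 0.789 ± 0.0263 (SD, n = 4) over both alleles. It differed between the alleles, with 1.13 ± 0.0511 on S129 and 0.609 ± 0.0165 on CAST.

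The order depended on the gene length in the RPKM. The deposited Vim values correspond to a length of 574 bp, that of a short transcript, while all annotated exons of Vim cover 4743 bp. With this exon length Vim came to 206 ± 16.5 RPKM, the third after Actg1 (316 ± 23.8 RPKM) and Acta2 (275 ± 18.6 RPKM). Tpm1, a gene with many alternative exons, was the fourth with 109 ± 4.25 RPKM, since its exons cover 6485 bp and the deposited values correspond to 1714 bp. Cnn2 was unaffected, with 2460 bp on both scales, and passed Actb, which came to 41.8 ± 4.10 RPKM. Tpm2 and Cnn1 were lowest on both scales. The length cancels in a comparison of alleles or libraries of one gene.

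**Figure D1:**
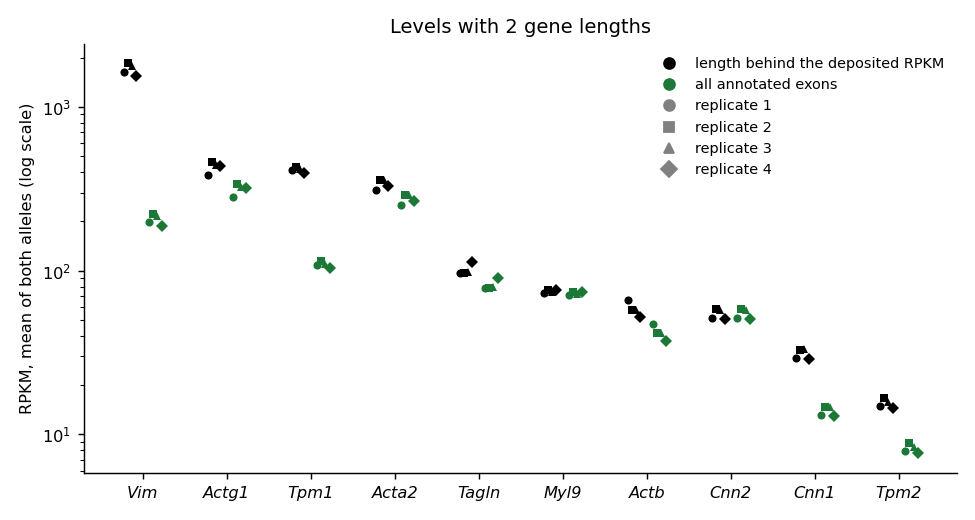
RPKM as the mean of both alleles (log scale) of each member in replicates 1 to 4, with the length behind the deposited values (black) and with the length of all annotated exons (green). Vim averaged 1703 RPKM with the first and 206 RPKM with the second, Tpm1 averaged 412 and 109 RPKM, and Cnn2 was at 54.4 RPKM on both.

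Differences between libraries were small for most members. The coefficient of variation of the level over the 4 libraries ran from 2.27% (Myl9) to 9.82% (Actb), with a median of 7.14%, beside a median of 8.64% over the 5889 genes with at least 10 RPKM. Replicate 2 was the highest for 5 members and replicate 4 the lowest for 6. The median deviation of the members from their means was 5.57% in replicate 2 and -5.74% in replicate 4, beside 3.78% and -6.91% over all genes with at least 1 RPKM. Tagln and Myl9 were highest in replicate 4, and Actg1 was above its mean there by 0.760%. For Myl9 replicate 4 had 76.6 RPKM, beside 72.7 to 75.9 RPKM in the others. The Tagln level was 97.4, 97.4, 98.6 and 112 RPKM in replicates 1 to 4, so that replicate 4 lay above the other three.

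Whether the S129 and CAST copies gave the same amount of RNA was tested with limma on the differences in log2(RPKM+0.1) within each library, with Benjamini-Hochberg adjustment over all 13341 genes tested. Of the 10 members, 4 were called higher on S129 (Actb, Myl9, Vim and Cnn2), 3 higher on CAST (Tpm2, Actg1 and Cnn1), and Acta2, Tagln and Tpm1 were not called at an adjusted p of 0.05. Calls were frequent in this hybrid: 62.7% of all genes and 61.4% of the 12869 autosomal genes tested passed the same threshold, 28.9% of the latter with S129 higher and 32.5% with CAST higher. The number of members called is close to that share. The alleles of these 7 members did not overlap over the libraries, which held for 43.6% of the autosomal genes. These shares take in genes far lower than any member. With genes under 10 RPKM (both alleles together) left out, 5869 of the 8009 genes tested were called, and the share without overlap was not examined there. At least a 2-fold difference was called for Tpm2 and Actb, beside 11.9% of the autosomal genes. The median absolute difference was 0.50 (log2) over the members and 0.29 over the autosomal genes tested, and the median signed differences were -0.03 and -0.02.

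**Figure D2:**
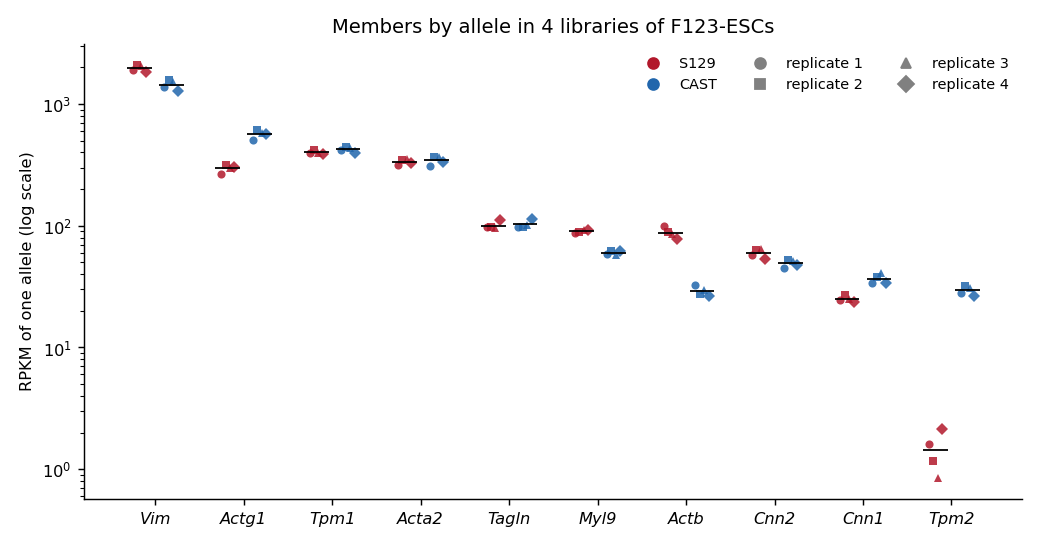
RPKM of the S129 allele (red) and the CAST allele (blue) of each member in replicates 1 to 4 (log scale), with lines at the means of 4 libraries. The alleles were farthest apart for Tpm2 (1.45 RPKM on S129, 29.4 RPKM on CAST) and Actb (87.7 and 29.0 RPKM), and overlapped for Acta2, Tagln and Tpm1.

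Among the actins, Actb encodes the beta-actin of all non-muscle cells and lies on chromosome 5 (mm10, chr5:142903115-142906754, minus strand). Its S129 allele had 99.5, 88.1, 85.5 and 77.5 RPKM in replicates 1 to 4, and its CAST allele had 32.3, 27.6, 29.8 and 26.5 RPKM. S129 was higher in all 4 libraries with no overlap, by 3.01-fold (log2 difference 1.59 ± 0.0405 SE, adjusted p = 2.33e-05). The S129 share of Actb reads was 74.9% to 76.9%, with an exact 95% interval of 73.7% to 76.0% in replicate 3, the lowest. A difference at least as large as that of Actb was found in 5.84% of autosomal genes. Of the 50-base windows of the Actb transcript, 14.2% also occur in transcripts of 18 other genes, most of them (179 of 266) in the protein-coding Lrrc58 and the rest including 14 pseudogenes, so its values are uncertain to the extent that reads were placed on these genes.

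Actg1, the gene for the cytoplasmic gamma-actin (chr11:120345690-120348542, minus strand), went in the other direction. Its S129 allele had 268, 318, 299 and 305 RPKM in replicates 1 to 4. Its CAST allele had 504, 608, 581 and 563 RPKM. CAST was higher in every library, with a log2 difference of -0.92 ± 0.0309 SE and an adjusted p of 5.18e-05, corresponding to 1.90-fold. This was the most even difference of all members, running from -0.96 to -0.89. More than with Actb, the transcript shares its sequence with other loci: 56.7% of its windows occur elsewhere, most of them in the pseudogene Gm12715. The annotated Mir6935 within Actg1 was listed at 0.

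The ratio of the cytoplasmic actins therefore differed between the alleles. Gamma-actin RNA stood at 3.43 ± 0.529 times (SD, n = 4) that of beta-actin on S129 and at 19.6 ± 2.86 times on CAST, and the ranges of 2.69 to 3.94 and 15.6 to 22.0 did not overlap. Since reads without a SNP are missing, the ratio itself holds for SNP-covering reads alone.

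Acta2, which encodes alpha-smooth muscle actin (chr19:34241090-34255590, minus strand), did not differ detectably. The S129 allele had 313, 348, 352 and 328 RPKM and the CAST allele 310, 368, 364 and 331 RPKM. The alleles overlapped, and S129 was higher in replicate 1 and CAST in the other three. The log2 difference was -0.03 ± 0.0329 SE (adjusted p = 0.425), and its sign turned when both alleles were scaled to the same autosomal sum (0.07) or compared by reads not divided by their totals (0.02). The RPKM of Acta2 corresponded to a length of 1781 bp, which was found by search and not in an annotated transcript. Its S129 share was between 49.6% and 51.0%.

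Tagln, Cnn1 and Cnn2 encode calponin family proteins, which bind along actin filaments. The first, encoding transgelin (SM22), an early smooth muscle marker, lies at chr9:45929619-45936058, minus strand. Its S129 allele had 97.1, 97.6, 96.2 and 111 RPKM and its CAST allele 97.6, 97.1, 101 and 114 RPKM. Replicate 4 was the highest on both alleles, which overlapped. The log2 difference of -0.03 ± 0.0318 SE was not called (adjusted p = 0.468) and was positive under both scalings that turned Acta2. Tagln overlaps Pcsk7 on the opposite strand (5.02 RPKM), and 48.3% of its windows also occur in other transcripts, mainly the antisense Gm48529. The kit was stranded, but whether the counting used the strand is not stated, so part of the reads could belong to these genes.

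Cnn1, the smooth muscle calponin (chr9:22099216-22109630, plus strand), had 24.7, 27.1, 25.0 and 23.5 RPKM on S129. On CAST it had 33.6, 38.1, 41.0 and 34.0 RPKM. CAST was higher in 4 of 4 libraries, by 1.46-fold (log2 difference -0.54 ± 0.0561 SE, adjusted p = 0.00148), and replicate 3 had the largest difference, with -0.71. Cnn2, the calponin of non-muscle cells (chr10:79988584-79996062, plus strand), went in the opposite direction. It had 57.7, 63.6, 63.9 and 53.7 RPKM on S129 and 45.0, 52.3, 50.9 and 47.6 RPKM on CAST. S129 was higher in all libraries by 1.22-fold (log2 difference 0.29 ± 0.0439 SE, adjusted p = 0.00541), the smallest called difference among the members, with as large a difference in 51.0% of autosomal genes. The ratio of Cnn2 to Cnn1 was 2.38 ± 0.119 on S129 and 1.34 ± 0.0688 on CAST (SD, n = 4), without overlap.

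Myl9 encodes a regulatory light chain of smooth muscle and non-muscle myosin, whose phosphorylation switches on the motor (chr2:156775420-156781658, plus strand). Its S129 allele had 87.4, 89.6, 92.0 and 91.4 RPKM and its CAST allele had 58.1, 62.2, 57.0 and 61.8 RPKM. S129 was higher in 4 of 4 libraries, by 1.51-fold (log2 difference 0.59 ± 0.0403 SE, adjusted p = 0.000415). None of the windows of its 1128 bp transcript occur in another gene's transcript, and its level varied least between libraries.

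The tropomyosins lie head to tail along the filament and govern the access of myosin. Tpm1 (chr9:67022590-67049406, minus strand) had 397, 417, 399 and 387 RPKM on S129 and 421, 446, 434 and 398 RPKM on CAST. CAST was higher in each library, but the alleles overlapped between libraries. The log2 difference was -0.09 ± 0.0315 SE, with an adjusted p of 0.0696. It was called with a variance trend in the fit (adjusted p = 0.00604) or when genes under 10 RPKM were left out (adjusted p = 0.0345), and became 0.02 when the alleles were scaled to the same autosomal sum.

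Tpm2, the tropomyosin known as beta (chr4:43514711-43523765, minus strand), had the largest difference. Its S129 allele had 1.62, 1.16, 0.844 and 2.16 RPKM in replicates 1 to 4, from 72, 46, 32 and 58 reads. Its CAST allele had 28.1, 32.2, 30.8 and 26.6 RPKM, from 1208, 1224, 1124 and 688 reads. The CAST allele was thus higher in every library, by 20.1-fold (log2 difference -4.33 ± 0.272 SE, adjusted p = 0.000329), and 0.357% of autosomal genes (46) differed at least as much. The size of this difference depended on the pseudocount, and with 1 RPKM in place of 0.1 the log2 difference was -3.66. The S129 share varied between libraries beyond counting error: it was 2.77% in replicate 3 (exact 95% interval 1.90% to 3.89%) and 7.77% in replicate 4 (5.96% to 9.94%). As a measure of wrong assignment to an allele, 0.112% to 0.132% of reads on X-linked genes were on CAST, although the X chromosome of this male line is maternal. The share of CAST reads placed on S129 has no such measure here. Tpm1 RNA stood at 13.9 to 15.0 times that of Tpm2 on CAST and at 179 to 473 times on S129, over the 4 libraries.

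Vim, which encodes vimentin (chr2:13573927-13582826, plus strand), had 1902, 2102, 2058 and 1816 RPKM on S129. On CAST it had 1380, 1584, 1511 and 1270 RPKM. S129 was higher in 4 of 4 libraries, by 1.37-fold (log2 difference 0.46 ± 0.0338 SE, adjusted p = 0.000529). The counts behind these values ran from 12185 to 31405 reads per allele. On S129 they were the deepest of the members, and on CAST Actg1 was deeper in each library (18375 to 29224 reads). None of the windows of its 574 bp transcript are shared with another gene, but the rest of its exons was not searched. Replicate 2 was the highest and replicate 4 the lowest on both alleles.

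**Figure D3:**
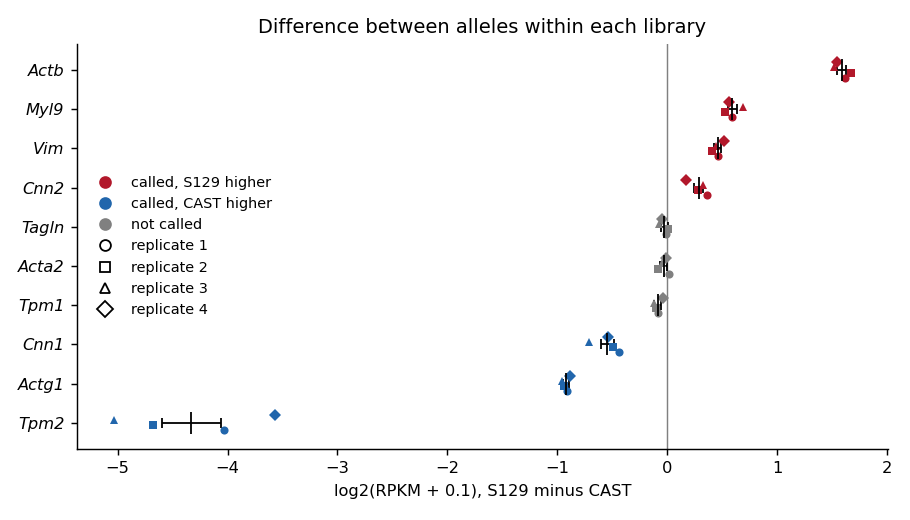
Difference in log2(RPKM+0.1) between S129 and CAST for each member within replicates 1 to 4, with the mean and its standard error from limma (black). Tpm2 lay between -5.03 and -3.57 and Actb between 1.52 and 1.67, and the signs of Acta2, Tagln and Tpm1, which were near 0, turned with the scaling.

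The order of the members was not the same on both alleles. On S129, Vim was followed by Tpm1 (400 RPKM), Acta2 (335 RPKM) and Actg1 (297 RPKM), of which Acta2 and Actg1 overlapped, and Actb took the seventh place with 87.7 ± 9.12 RPKM, overlapping Myl9. On CAST, Actg1 was second with 564 ± 44.1 RPKM and apart from Tpm1 (425 RPKM), and Actb was the lowest with 29.0 ± 2.56 RPKM, overlapping Tpm2 with 29.4 ± 2.52 RPKM.

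None of the members lies on chromosome 3 or 16, where the median S129 share over genes was 38.2% and 62.6%, and the chromosomes of the members had medians of 49.6% to 51.1%. Each member was set beside the 3 nearest tested protein-coding genes on either side with at least 400 reads in all, the same minimum as for the medians. The S129 share of Actb (75.9%) was above those of its 6 neighbours, which ran from 47.6% to 65.6%, and Fscn1, encoding an actin-bundling protein 57228 bp away (between the lower coordinates of both genes), was called higher on CAST. For the other members, the share lay within the range of the neighbours. Near Tpm2 (4.67%), Creb3, at a distance of 47621 bp measured in the same way, had an S129 share of 3.76%, and Tln1 (talin 1, which ties integrins to actin) and Gba2 on the same side were also called higher on CAST. All 3 genes on its other side, Arhgef39, Ccdc107 and Tesk1, were called higher on S129, with shares of 53.7% to 64.0%. Around Tagln, which was not called, the neighbours had shares of 46.3% to 54.1%, and around Acta2, not called either, they ran from 35.5% to 91.9%.

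**Figure D4:**
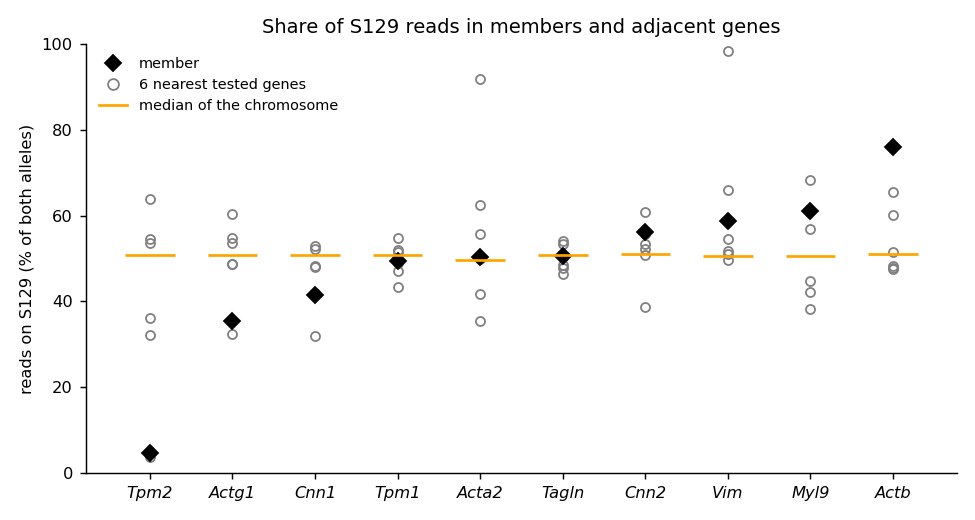
Share of reads on S129 (percent of both alleles, reads of all 4 libraries summed) of each member (black), of the 6 nearest tested protein-coding genes (grey circles) and as the median over the genes of its chromosome (orange). Actb with 75.9% lay above all its neighbours, and Tpm2 with 4.67% lay close to 1 of its neighbours at 3.76%.

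The other genes of the actin system were counted as whole lists. The remaining muscle actins were all measured and called: Actc1 (33.2 RPKM, cardiac) and Acta1 (11.3 RPKM, skeletal) were higher on S129 by 0.20 and 0.31 on the log2 scale, and Actg2 (28.5 RPKM, enteric smooth muscle) was higher on CAST (difference -0.48). Of 20 genes of actin assembly and turnover, 19 were tested, 3 were called higher on S129 and 8 on CAST, with a median autosomal difference of -0.08. In deposited RPKM the highest were the depolymerising factors Cfl1 (683) and Dstn (451) and the Arp2/3 subunits Arpc3 (272) and Arpc2 (191). Arpc2 had 899 to 1794 reads per allele, and Actr2, at 71.3 RPKM, had 3404 to 7496. This order too depends on the gene length in the RPKM. Capza1, a capping protein on chromosome 3, had the largest difference towards CAST (-1.01), and the X-linked Tmsb4x was listed at 0 on CAST.

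Of 22 genes of non-muscle myosin and filament binding, 12 were called higher on S129, of which Flna and Msn are X-linked, and 7 higher on CAST. The highest in deposited RPKM were Myl6, the essential myosin light chain, with 1615, Tpm4 with 692, Lasp1 with 666 and the acidic calponin Cnn3 with 448. Myh9, the heavy chain of non-muscle myosin IIA, had the largest difference towards CAST, with 12.9 ± 1.10 RPKM on S129 and 51.4 ± 6.37 RPKM on CAST (log2 difference -1.98 ± 0.0451 SE, adjusted p = 1.72e-05). On the autosomes, Tagln3 on chromosome 16 had the largest difference towards S129 (3.03 ± 0.231 SE). Its CAST allele averaged 0.409 RPKM, with as few as 5 reads in a library, so the size of this difference depends on the pseudocount. Tagln2, a paralogue of Tagln, was higher on S129 by 3.65-fold, with 178 ± 5.21 and 48.8 ± 5.62 RPKM. Cnn3, on chromosome 3, and Tpm4 were higher on CAST (-1.07 and -0.62).

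The muscle lists were lower. Of 8 other smooth muscle contractile genes, 5 were tested, with 3 called higher on S129 and 2 on CAST, and the median level was 2.93 RPKM. After Actg2 these were led by Des (16.6 RPKM), Smtn (5.64 RPKM) and Myh11, of which Myh11 (0.69) and Smtn (-0.49) had the largest differences. Myh11 lies on chromosome 16, and its S129 share of 63.3% was close to the median of that chromosome (62.6%). Of 10 striated muscle genes, 9 were tested, and 3 were called higher on S129 and 2 on CAST. Tnnc1 (33.0 RPKM), Myl4 (17.3 RPKM), Myl3 (3.05 RPKM) and Myl7 (2.47 RPKM) were the highest. Myl4 was higher on S129 by 7.48-fold, and Myl3 was higher on CAST (-1.47). Among other intermediate filament genes, 4 of 5 were tested, and Nes (76.2 RPKM, chromosome 3), Prph (7.16 RPKM) and Ina (4.29 RPKM) were called higher on CAST and Des higher on S129, where Vim was higher too.

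Of 10 genes for SRF, its cofactors and its targets, 6 were found by symbol and 4 tested. Mrtfa, Mrtfb, Ccn1 and Ccn2 were not found, also under older symbols, so the cofactors Mrtfa and Mrtfb were not covered. Srf had 3.81 RPKM, its alleles were not called different (adjusted p = 0.0642), and the early response gene Fos had 0.906 RPKM. Ankrd1 (4.61 RPKM) was higher on S129 by 1.19 on the log2 scale, and Fhl2 (9.97 RPKM) was higher on CAST (-0.59).

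**Figure D5:**
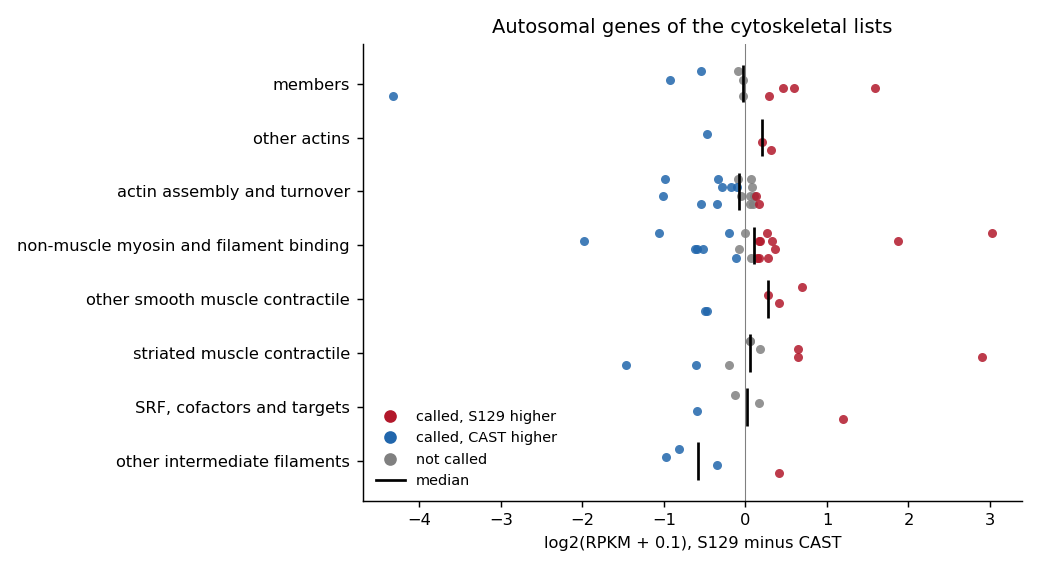
Difference in log2(RPKM+0.1) between S129 and CAST for the autosomal genes tested of each list, with the median of each list (black line). Both directions occur in every list, and Tpm2 at -4.33 lies lowest.

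Actb had the largest spread between libraries of all members on the log2 scale (SD 0.14), and the genes with the most similar pattern over the 8 allele columns were sought among 5888 others with at least 10 RPKM. They were Ywhah, the microRNA locus Mir669a-1, Itpa, Tcl1 and Ubxn2a, with Pearson correlations of 0.996 to 0.998. All were higher on S129, with shares of 64.2% to 98.3%. The search itself set this direction, because the gap between the Actb alleles was far larger than its spread between libraries. The 8 columns share 4 libraries and the split between alleles, and the microRNA locus belongs to a multicopy family whose reads are uncertain.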

How the data were processed

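Stranded libraries of polyadenylated RNA were sequenced by the authors, who removed ribosomal RNA reads, trimmed with Trimmomatic (version 0.40), aligned with STAR to mm10 masked at SNPs and sorted reads to S129 or CAST with SNPsplit. The authors deposited RPKM per gene and allele for each of 4 libraries (8 columns; 0 columns of other samples). The averages and log10 columns deposited beside them were not used. The program counting reads on genes, its annotation and its use of strand are not given in the sources used here.

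Reads and gene lengths were recovered from the steps between RPKM values with GENCODE M21 (99.5% of the 20243 genes above 0 came out whole, within 0.02 reads or 2e-07 of the value). S129 totals were 28772351, 25669307, 24552752 and 17403695, and CAST totals 27855621, 24615658, 23625670 and 16716721. RPKM was divided by the total of its own allele. Intervals (exact binomial, 95%) cover counting error only.

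Alleles were compared by limma (version 3.58.1, R 4.3.3) with an intercept as the model on differences in log2(RPKM+0.1), for genes whose allele means sum to at least 1 RPKM, with Benjamini-Hochberg adjustment. Fold changes are on this scale and understate those of low genes. The fit was tested on simulated data. Columns were paired because the S129 and CAST reads of a number come from the same library. The first S129 column has a minus sign before its number and was read as replicate 1. Over 12869 genes, deviations correlated by 0.106 to 0.202 within and -0.162 to 0.145 between libraries. These ranges overlap, so they do not by themselves establish the pairing. No libraries agreed within counting noise (chi-square per degree of freedom 6.48 to 74.0). Nothing says whether the libraries came from separate cultures, so p-values measure only the spread between these libraries, which may be technical. Levels are means of both alleles unless one is named. Windows of 50 bases of 1 transcript of each member (the one behind its RPKM length where found) were searched in all other annotated transcripts. Members and lists were chosen with earlier results of these data known. All members are named. Of each list, up to 4 genes with the highest mean, genes listed at 0 and the largest difference in each direction are named. Tagln2, Cnn3 and Tpm4 differences, the read counts of Col1a1 and Actr2, other paralogues and neighbours were picked after their values were seen. Alternatives were another pseudocount or filter, no pairing, other scalings, a variance trend, whole reads, exon lengths and each library left out.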

Additional observations from a re-analysis of the deposited data

Results flagged for a closer look

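The 10 levels and 10 allelic differences of the members were compared between the 4 libraries by Dixon's criterion, which chance passes in about 1 of 20 quantities. The level of Tagln in replicate 4 passed, with 112 RPKM against 97.4 to 98.6 RPKM in the other libraries (gap over range 0.917). Both of its alleles were highest there (111 RPKM on S129, 114 RPKM on CAST).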

How the results depend on the processing

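All 7 members called different between alleles were called in the same direction under all 12 alternatives. Of 120 alternative values for the differences of members, 113 kept direction and side of the threshold, 2 (both Tpm1, adjusted p = 0.00604 and 0.0345) passed it and 5 reversed, none of them called. Scaled to the same autosomal sum, which shifted the median of all genes by 0.10 (log2), the difference became 0.0700 for Acta2, 0.0739 for Tagln and 0.0162 for Tpm1, and as whole reads not divided by totals (shift 0.06) it became 0.0222 for Acta2 and 0.0262 for Tagln. Over all genes, 4187 were called higher on S129 and 4182 on CAST, 50.0% of calls on S129. Scaled to the same autosomal sum, the split was 5121 to 3072 (62.5%). Without each library in turn, 3466 to 3955 were higher on S129 and 3380 to 3949 on CAST. Without pairing, 3292 and 3133 were. Of 90 alternative levels, 23 moved by more than 1 SD between libraries, all with the exon length or 1 allele alone. With 32 reads, the S129 allele of Tpm2 in replicate 3 was the least precise value (95% Poisson interval 0.577 to 1.19 RPKM).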
